A study of Mus musculus with 8 samples.

Results

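The genes described here are the core of extracellular TGF-beta signalling: the 3 ligand genes Tgfb1, Tgfb2 and Tgfb3, the 3 receptor genes Tgfbr1, Tgfbr2 and Tgfbr3, and the 4 genes of latent TGF-beta binding proteins, Ltbp1 to Ltbp4. All probe sets that the platform annotation assigns to exactly 1 of these 10 symbols were taken, whatever their values. They were 19 of the 45141 probe sets on the arrays and covered 10 of the 17097 named genes. Expression was measured on Affymetrix arrays, 1 per mouse, in dermal fibroblasts of 4 old (18 months) and 4 young (2 months) male C57Bl/6 mice with no stated genetic change or treatment. Per the labels' protocols, all 8 samples came from collagenase-digested skin freed of its subdermis, from which 5000 cells per mouse that carried Pdgfra and CD34 and lacked CD45, CD117, CD24, CD31 and EpCam were sorted. Each array stands for another animal, so the spread given is between mice.

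TGF-beta is secreted in a latent form, in which the ligand stays bound to its own propeptide, and this small complex is in turn tied by a latent binding protein to fibrillin microfibrils of the matrix. Once set free, for instance by integrins or proteases, the ligand binds the type II receptor Tgfbr2, which activates the type I receptor Tgfbr1, and Tgfbr1 phosphorylates the transcription factors Smad2 and Smad3. Betaglycan, the product of Tgfbr3, is a coreceptor that presents ligand to Tgfbr2. In the dermis the pathway is known as a driver of collagen production and of the conversion of fibroblasts to myofibroblasts.

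Array medians lay between 5.06 and 5.14 (log2). Most fibroblast markers were bright in both ages, with means over the 8 arrays of 13.11 for Col1a1, 13.05 for Dcn and 10.91 for Cd34, but Pdgfra, a gene of the sorting gate with a single probe set, averaged only 4.76. A level is called dim here when it lies below 5.10, the median over all probe sets, and 23 non-specific control probe sets had a median of 3.91 with single values up to 7.20. Among 54 measured markers of other cell types, 1 rose in old mice, against 1.82% of all genes. This was the melanocyte gene Mlana, which changed by 2.88. Of the 54, 9 lay at or below the median of the non-specific controls, among them Ptprc (CD45), Kit (CD117) and Adipoq. Of these 54 markers, 21 were above the dim level: Krt5, Krt10, Krt14 and Epcam of keratinocytes, Pecam1, Cdh5 and Kdr of endothelium, Csf1r and Cd68 of leukocytes, Cma1 of mast cells, Mlana, Mitf and Pmel of melanocytes, Des and Myh11 of mural cells, Retn of adipocytes, Mbp and Sox10 of Schwann cells, Ckm of muscle, and Itga2b and Gp9 of platelets. Old replicate 3 had Krt10 and Perp at 9.13 and 7.40, against at most 6.84 and 5.11 in the other old mice. Krt5 set it less apart, at 8.78 against 8.43 in old replicate 4, and Epcam was 5.61 in both old replicates 2 and 3. The mean level of the 7 keratinocyte markers ranged from 5.40 to 6.86 in old mice and from 5.08 to 5.74 in young mice. That of the 6 melanocyte markers ranged from 5.86 to 6.10 in old mice and from 5.25 to 5.52 in young mice. Beside Mlana, Mitf changed by 0.57, Tyr by 0.12, Dct by 0.105, Tyrp1 by -0.06 and Pmel by -0.085, and none of these passed. The part of these cells in the results below was not tested. Of the 8 fibroblast markers, 1 fell, against 2.15% of all genes. This was the surface glycoprotein gene Thy1, with 10.66, 10.87, 10.82 and 10.81 in old replicates 1 to 4, against 11.39, 11.32, 11.46 and 11.44 in young replicates 1 to 4, a change of -0.61 (limma adjusted p = 0.00176). Pdgfra changed by -0.59 and Col1a2 by -0.40, and neither passed.

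In old fibroblasts the type II receptor gene Tgfbr2 and the latent binding protein genes Ltbp4 and Ltbp3 were higher than in young ones, each by less than 1 log2 unit, and no member was lower by the test. A change is the mean of the old mice less that of the young mice on the log2 scale, its standard error (SE) is that of limma's fit, and a gene is represented by its brightest probe set unless another is named. At an adjusted p under 0.05 over all 17097 genes, 3 of the 10 members rose, against a background of 1.82% of all genes, and 0 fell, against 2.15%, or 3.97% in either direction. All old mice lay above all young mice for 4 members, against 4.49% of all genes, and below for 0, against 5.21%. At an unadjusted p under 0.05, limma gave 6 members higher and 2 lower, against 6.8% and 8.28% of all genes. The median change of the 10 members was 0.29, and that of all genes was 0.01. Since RNA was pooled from sorted cells, a change in the share of a kind of cell and a change in RNA per cell cannot be told apart. The number of members that rose was 1 without old replicate 2 and 1 without young replicate 3, in both cases Tgfbr2. Without old replicate 3, Tgfbr2 and Ltbp4 passed (limma adjusted p = 0.0394 and 0.0353) and Ltbp3 did not (0.0771).

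**Figure D1:**
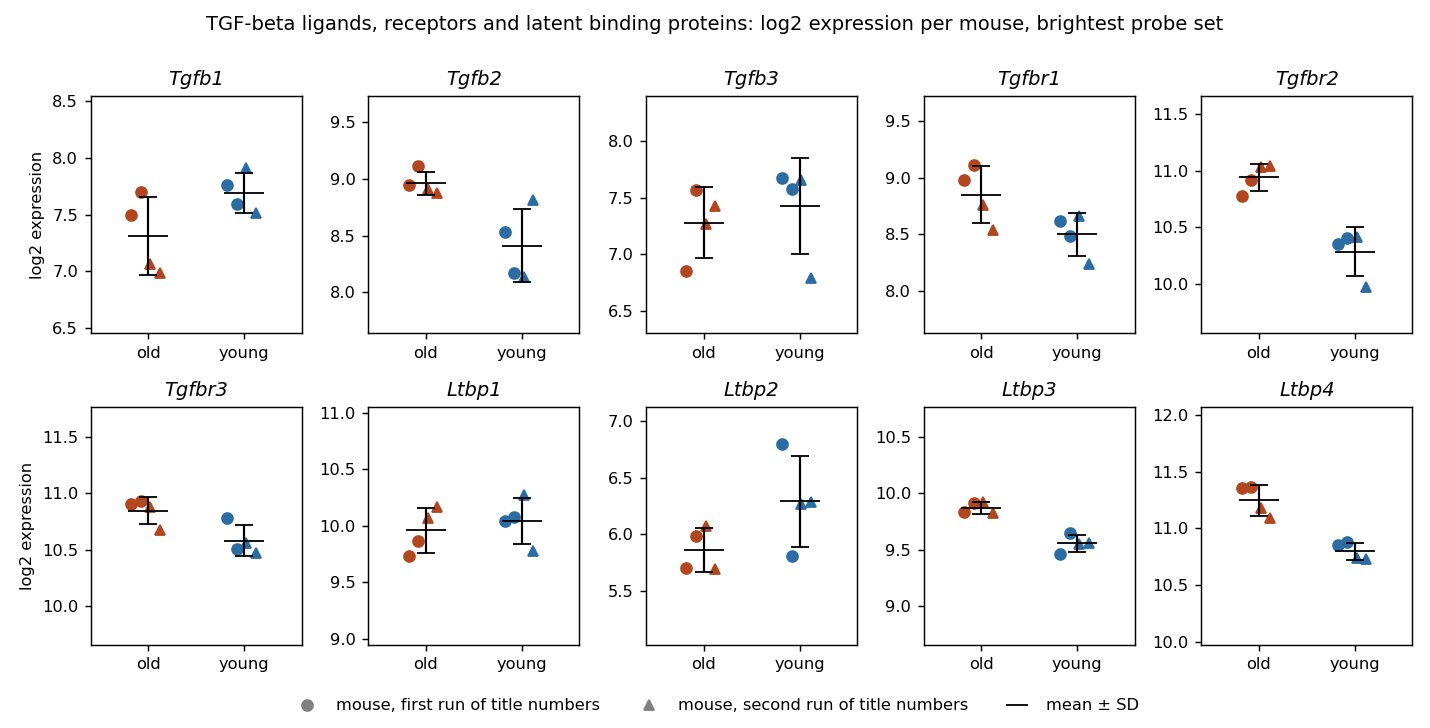
Log2 expression of the brightest probe set of each of the 10 genes in every mouse, old mice left of young mice, with circles and triangles for the 2 runs of numbers in the sample titles and bars for mean ± SD (n = 4 each); each panel covers the same width of log2 values around its own centre. The ages do not overlap for Tgfb2, Tgfbr2, Ltbp3 and Ltbp4, where all old mice lie above all young mice.

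Among the ligands, the isoforms differed in direction and none passed the test. Tgfb2, the isoform that depends most on betaglycan for access to the receptor, had levels of 8.95, 9.11, 8.91 and 8.88 in old replicates 1 to 4, against 8.53, 8.17, 8.13 and 8.81 in young replicates 1 to 4. All 4 old mice lay above all 4 young mice, with young replicate 4 close to the old ones. The difference was 0.55 ± 0.14 (SE), or 1.47-fold, and did not pass (limma adjusted p = 0.0744). Without young replicate 4 it was 0.69 and passed (limma adjusted p = 0.0115), and with array weights it was 0.62 (limma adjusted p = 0.0231). Without young replicate 3 it was 0.46 and did not pass (limma adjusted p = 0.171).

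Tgfb1, the isoform most studied in fibrosis, had levels of 7.50, 7.70, 7.06 and 6.98 in old replicates 1 to 4, against 7.76, 7.59, 7.91 and 7.51 in young replicates 1 to 4. Old replicates 1, 3 and 4 lay below every young mouse, old replicate 1 only just, and old replicate 2 lay within the young range. The difference of -0.38 ± 0.16 (SE) did not pass (limma adjusted p = 0.302), and its 95% confidence interval ran from -0.75 to -0.015. Tgfb3, known in mice for its part in fusion of the palate, had 6.85, 7.57, 7.27 and 7.43 in old replicates 1 to 4, against 7.68, 7.58, 7.66 and 6.79 in young replicates 1 to 4. The ages overlapped, and young replicate 4 was the lowest of all 8 mice. The difference was -0.15 ± 0.22 (SE; limma adjusted p = 0.856), with an interval from -0.63 to 0.34. Over the 8 fits without 1 mouse it ranged from -0.36 without young replicate 4 (limma adjusted p = 0.318) to -0.0042 without old replicate 1 (limma adjusted p = 0.998).

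All 3 receptor genes had a probe set that was higher in old fibroblasts by the fit over all probe sets, although the brightest probe set passed for Tgfbr2 alone. A gene with several probe sets has several chances to pass, and the share of all genes with such a probe set was not computed. Tgfbr2 encodes the type II receptor, the kinase that binds the free ligand. Its brightest probe set had 10.78, 10.92, 11.03 and 11.04 in old replicates 1 to 4, against 10.35, 10.41, 10.42 and 9.97 in young replicates 1 to 4. The ages did not overlap, and young replicate 4 lay below the other young mice. Tgfbr2 rose by 0.66 ± 0.11 (SE), or 1.57-fold with a 95% confidence interval from 1.32-fold to 1.87-fold (limma adjusted p = 0.0113). It stayed past the threshold in each of the 8 fits without 1 mouse, where the change ranged from 0.55 to 0.71, and in the 9 other settings tried on genes. Averaged over its 3 probe sets, of which 1 is dim, the change was 0.38 (limma adjusted p = 0.0186). The second bright probe set of Tgfbr2 had 10.18, 10.46, 10.30 and 10.23 in old replicates 1 to 4, against 10.04, 9.92, 9.73 and 9.64 in young replicates 1 to 4. It rose by 0.46 ± 0.10 (limma adjusted p = 0.0499 over all probe sets), just inside the threshold, and lost the call in 7 of the 8 fits without 1 mouse, with adjusted p up to 0.130 without old replicate 2. By that fit the brightest probe set passed with all mice (adjusted p = 0.0167) but not without old replicate 4 (0.0544) or old replicate 3. Its dimmest probe set averaged 3.69 in old and 3.68 in young mice, below the median of the non-specific controls, and changed by 0.0175.

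RefSeq promoter windows, from 250 bases before to 50 after a transcription start in GRCm38.p6, were held for 8 of the 10 members, 12 windows in all. Windows of Tgfbr1, Tgfbr2, Ltbp3 and Ltbp4 are printed, since each of these genes had a probe set that rose. No window was held for Tgfb3, or for Tgfbr3, which also had a risen probe set. The windows were searched on both strands for the GC box GGGCGG, the Smad half-site CAGAC, the AP-1 site TGACTCA, the CCAAT box CCAAT and the palindromic Smad-binding element, and matches are in capitals. Of 32851 promoter windows, 35.7% held the GC box, 49.6% the Smad half-site, 5.2% the AP-1 site, 37.4% the CCAAT box and 0.213% the palindromic Smad element. The window of Tgfbr2 (chr9:116175314-116175613, minus strand) held 1 Smad half-site and 2 CCAAT boxes. The first window of Tgfbr1 (chr4:47352972-47353271, plus strand) held 2 GC boxes and 2 CCAAT boxes. Its second (chr4:47385966-47386265, plus strand) held 1 Smad half-site and 1 CCAAT box and is not printed. Members with no risen probe set held these motifs too. The window of Ltbp2 held 3 Smad half-sites and 2 GC boxes, that of Tgfb2 2 half-sites and 1 CCAAT box, and that of Tgfb1 6 GC boxes. The first window of Ltbp1 held 1 half-site and 3 CCAAT boxes, and its second 2 half-sites.
Tgfbr2: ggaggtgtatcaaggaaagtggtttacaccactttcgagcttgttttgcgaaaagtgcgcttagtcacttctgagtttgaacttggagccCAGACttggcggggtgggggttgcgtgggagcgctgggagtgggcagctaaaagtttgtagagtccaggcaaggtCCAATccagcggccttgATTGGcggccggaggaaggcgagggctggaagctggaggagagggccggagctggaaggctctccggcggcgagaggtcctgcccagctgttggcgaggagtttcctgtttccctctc
Tgfbr1: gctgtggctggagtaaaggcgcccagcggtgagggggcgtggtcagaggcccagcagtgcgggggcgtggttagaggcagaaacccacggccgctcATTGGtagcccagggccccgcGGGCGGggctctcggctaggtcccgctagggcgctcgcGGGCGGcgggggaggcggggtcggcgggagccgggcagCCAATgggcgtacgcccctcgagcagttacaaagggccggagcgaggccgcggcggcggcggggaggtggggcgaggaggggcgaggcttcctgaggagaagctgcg

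Tgfbr1 encodes the type I receptor, which carries the signal to the Smads. Its brightest probe set had 8.98, 9.11, 8.76 and 8.54 in old replicates 1 to 4, against 8.62, 8.48, 8.66 and 8.24 in young replicates 1 to 4. Old replicate 4 lay within the young range, and the change of 0.35 ± 0.14 (SE) did not pass (limma adjusted p = 0.246). The next probe set, nearly as bright, had 8.75, 8.63, 8.51 and 8.60 in old replicates 1 to 4, against 7.99, 8.12, 8.28 and 8.20 in young replicates 1 to 4. There all old mice lay above all young mice, and the level rose by 0.48 ± 0.080 (SE; limma adjusted p = 0.0169 over all probe sets). It lost its call without old replicate 2 (adjusted p = 0.0539) and without young replicate 2 (adjusted p = 0.0555). The dimmest probe set of Tgfbr1 was dim, with a change of 0.40 ± 0.16 that did not pass (limma adjusted p = 0.296). Averaged over its 3 probe sets, Tgfbr1 rose by 0.41 (limma adjusted p = 0.0424).

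Tgfbr3 encodes betaglycan, whose shed ectodomain can also bind and withhold ligand. Its brightest probe set had 10.90, 10.93, 10.88 and 10.67 in old replicates 1 to 4, against 10.78, 10.51, 10.56 and 10.47 in young replicates 1 to 4. Old replicate 4 lay below young replicate 1, and the change of 0.27 ± 0.090 (SE) did not pass (limma adjusted p = 0.172). The other probe set had 9.77, 9.99, 9.96 and 10.01 in old replicates 1 to 4, against 9.46, 9.45, 9.59 and 9.23 in young replicates 1 to 4. It rose by 0.50 ± 0.089 without overlap (limma adjusted p = 0.0214 over all probe sets). Averaged over both probe sets, Tgfbr3 rose by 0.38 (limma adjusted p = 0.0157). The call of the second probe set was absent in 5 of the 8 fits without 1 mouse, with adjusted p up to 0.0689 without old replicate 2.

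Over all 45141 probe sets, 1.23% were higher in old mice at an adjusted p under 0.05 and 1.34% were lower, 2.57% in all. Of the 19 probe sets of the family, 6 rose and 0 fell, and the 6 belonged to 5 genes: Tgfbr1, Tgfbr2 (2 probe sets), Tgfbr3, Ltbp3 and Ltbp4. Probe sets of 1 gene share their transcript and are not independent, and no share of all genes with at least 1 risen probe set was computed. The count was 1 without old replicate 2, 2 without old replicates 3 or 4, and 3 without young replicates 2 or 3. The old mice lay wholly above the young mice in 7 of the 19 probe sets, against 3.95% of all probe sets, and wholly below in 0, against 4.47%. Of the 13 probe sets that did not pass, 5 were dim.

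**Figure D2:**
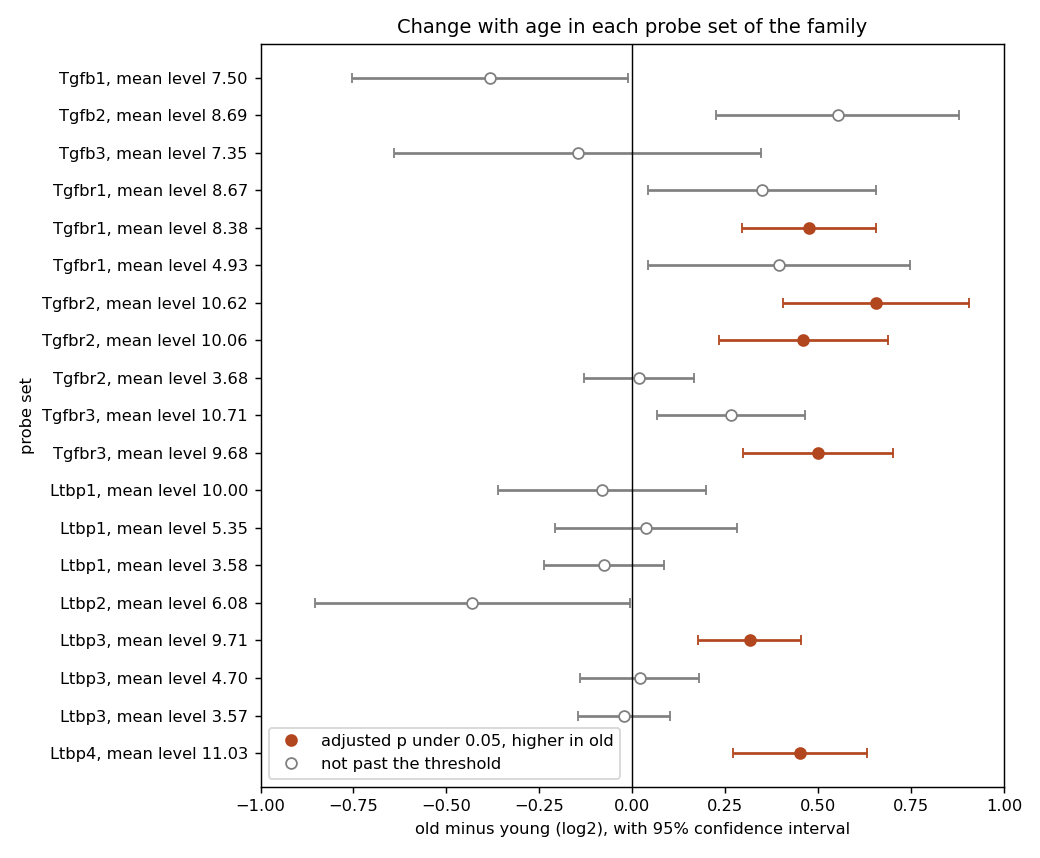
Change with age (old minus young, log2) of each of the 19 probe sets with its 95% confidence interval, grouped by gene, each labelled with its mean level over 8 arrays. The 6 filled points passed the test over all probe sets, all to the right of 0, and belong to Tgfbr1, Tgfbr2, Tgfbr3, Ltbp3 and Ltbp4.

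Among the latent binding proteins, Ltbp4 and Ltbp3 rose while Ltbp1 and Ltbp2 did not pass. Ltbp4, which in mice is needed for elastic fibre assembly beside its binding of latent Tgfb1, had 11.36, 11.37, 11.18 and 11.09 in old replicates 1 to 4, against 10.85, 10.88, 10.74 and 10.73 in young replicates 1 to 4. All old mice lay above all young mice. Ltbp4 rose by 0.45 ± 0.083 (SE), or 1.37-fold (limma adjusted p = 0.0165), and its call was absent without old replicate 2 (adjusted p = 0.0546) and without young replicate 3 (adjusted p = 0.0538). It has a single probe set among those with 1 symbol.

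Ltbp3, whose product holds latent TGF-beta in the matrix and is known in mice for a role in bone, had 9.83, 9.91, 9.92 and 9.82 in old replicates 1 to 4, against 9.46, 9.65, 9.55 and 9.56 in young replicates 1 to 4. The spread within each age was small, with SDs of 0.052 in old and 0.078 in young mice, and the ages did not overlap. Ltbp3 rose by 0.32 ± 0.066 (SE), or 1.24-fold (limma adjusted p = 0.0297). This call was lost in 6 of the 8 fits without 1 mouse, with adjusted p up to 0.0962 without old replicate 2, and with a prior that follows the mean level (adjusted p = 0.0700). The other 2 probe sets of Ltbp3 were dim, with changes of 0.02 and -0.0225, and the mean over its 3 probe sets changed by 0.10 (limma adjusted p = 0.437).

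The window of Ltbp3 (chr19:5740650-5740949, plus strand) held 2 Smad half-sites and 1 AP-1 site, which shares 2 bases with one of the half-sites. Of the 3 windows of Ltbp4, the upstream one (chr7:27337563-27337862, minus strand) held 3 GC boxes and 2 CCAAT boxes, and the next (chr7:27333614-27333913, minus strand) held 9 GC boxes, some of them overlapping. The last overlaps it and is not shown. None of the 12 windows of the family held the palindromic Smad element.
Ltbp3: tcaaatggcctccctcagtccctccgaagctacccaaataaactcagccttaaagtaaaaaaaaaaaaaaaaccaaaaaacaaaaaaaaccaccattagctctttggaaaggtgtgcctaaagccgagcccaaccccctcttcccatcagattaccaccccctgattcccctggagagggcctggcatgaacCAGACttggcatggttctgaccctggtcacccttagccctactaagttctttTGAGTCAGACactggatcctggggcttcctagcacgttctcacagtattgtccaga
Ltbp4, upstream start: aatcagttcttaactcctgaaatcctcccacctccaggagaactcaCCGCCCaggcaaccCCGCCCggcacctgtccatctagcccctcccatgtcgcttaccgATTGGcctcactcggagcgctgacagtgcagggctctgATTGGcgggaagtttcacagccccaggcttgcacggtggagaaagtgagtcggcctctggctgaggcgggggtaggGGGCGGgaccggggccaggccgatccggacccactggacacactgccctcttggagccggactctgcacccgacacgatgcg
Ltbp4, downstream start: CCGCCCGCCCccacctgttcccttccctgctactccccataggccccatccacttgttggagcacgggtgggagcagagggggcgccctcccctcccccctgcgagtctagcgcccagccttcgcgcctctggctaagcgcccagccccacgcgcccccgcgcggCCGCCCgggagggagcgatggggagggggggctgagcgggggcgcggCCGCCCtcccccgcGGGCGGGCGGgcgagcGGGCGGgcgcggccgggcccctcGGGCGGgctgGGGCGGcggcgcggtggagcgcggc

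Ltbp1, the most studied carrier of latent TGF-beta, had 9.73, 9.87, 10.07 and 10.17 in old replicates 1 to 4, against 10.04, 10.08, 10.27 and 9.78 in young replicates 1 to 4. The ages overlapped in full, and the change of -0.083 ± 0.12 (SE) had a 95% confidence interval from -0.36 to 0.20 (limma adjusted p = 0.863). Its 2 other probe sets changed by 0.0375 and -0.0775, and 1 of these was dim. Ltbp2, which binds fibrillin microfibrils but not latent TGF-beta, had 5.70, 5.98, 6.07 and 5.69 in old replicates 1 to 4, against 6.80, 5.81, 6.27 and 6.28 in young replicates 1 to 4. Young replicate 1 was the highest and young replicate 2 lay within the old range. The change of -0.43 ± 0.19 (SE) did not pass (limma adjusted p = 0.309), and all 8 levels of this single probe set lay within the range of the non-specific controls.

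The titles of the samples carry 2 runs of consecutive numbers, each with 2 old and 2 young mice. This is the makeup stated for a day of collection, but no label ties the runs to days. Within the first and the second run, Tgfbr2 differed by 0.47 and 0.84, Ltbp4 by 0.50 and 0.40, and Ltbp3 by 0.32 and 0.32. All old mice lay above all young mice for these 3 genes, so their sign in each run was fixed beforehand. Tgfb2 differed by 0.68 and 0.43, and the brightest probe sets of Tgfbr1 by 0.50 and 0.20 and of Tgfbr3 by 0.27 and 0.26. Tgfb1 differed by -0.075 in the first run and by -0.69 in the second. Tgfb3 differed by -0.42 and 0.13 and Ltbp1 by -0.26 and 0.095, with opposite signs. In all, 8 of the 10 genes and 14 of the 19 probe sets kept 1 sign across the runs. That sign was fixed for the 4 genes and 7 probe sets whose ages do not overlap. No share over all genes was computed, and some of the 14 probe sets were dim. With the run as a block in the fit, Tgfbr2, Ltbp4 and Ltbp3 stayed past the threshold and no other member joined them.

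**Figure D3:**
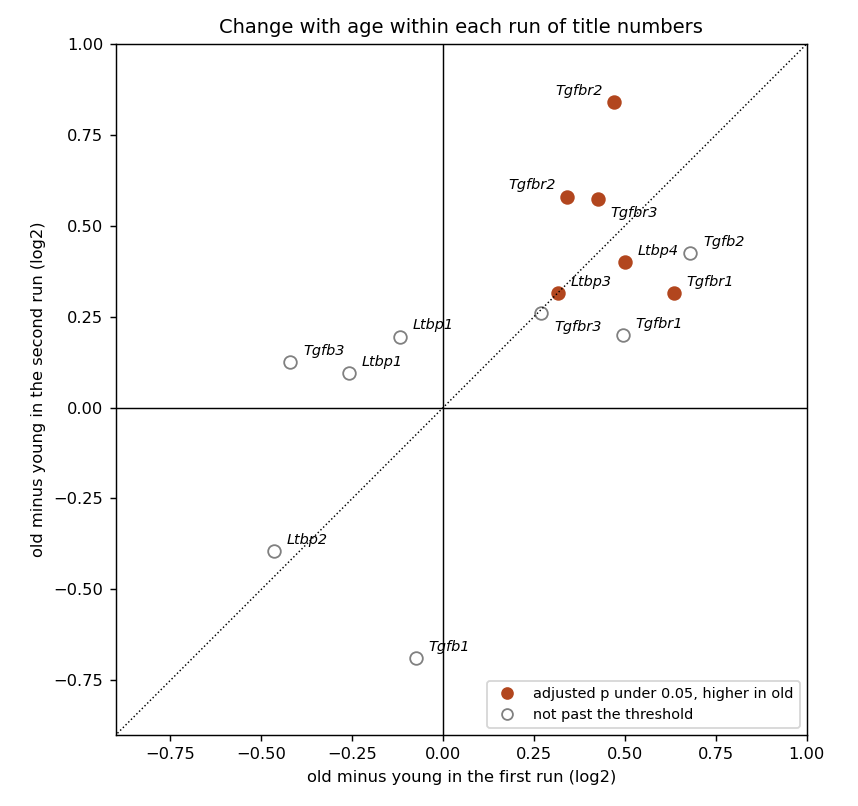
Change with age (old minus young, log2) within the first run of title numbers (horizontal) and the second (vertical) for the 14 probe sets above the dim level, with a dotted line of equal change. The probe sets that passed the test (filled) are all above 0 in both runs, as they must be since their ages do not overlap. Tgfb1 is near 0 in the first run and at -0.69 in the second.

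The rest of the pathway was read from 5 lists, on activation of latent TGF-beta, microfibril partners, coreceptors and modulators, Smads, and TGF-beta-induced genes. They name 79 genes, of which 70 were measured, and 3 stand in 2 lists. Of these 70, 5 rose and 7 fell, against the backgrounds of 1.82% and 2.15% given above. The count of 12 was 6 without old replicate 2, 6 without old replicate 4 and 7 without young replicate 4.

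Among 12 measured genes that activate latent TGF-beta or act on its processing, 1 fell, none rose, and the median change was 0.0275. Emilin1, whose product restrains the processing of the TGF-beta precursor in mice, fell by 0.46 ± 0.087 (SE; limma adjusted p = 0.0191). Its levels were 7.34, 7.63, 7.67 and 7.43 in old replicates 1 to 4, against 8.01, 7.91, 8.05 and 7.93 in young replicates 1 to 4, without overlap. Leaving out a mouse ended this call in 3 of 8 cases, with adjusted p up to 0.0622 for old replicate 4. Furin, the protease that cuts the propeptide from the ligand, changed by -0.38 ± 0.10 and did not pass (limma adjusted p = 0.0846). It passed with the title run as a block, the only 1 of 17 alternatives run on genes in which it did. Itgav, the alpha-v subunit of the integrins that free TGF-beta, and the membrane protease gene Mmp14 changed by -0.27 and 0.17 and did not pass (limma adjusted p = 0.170 and 0.348).

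Of 11 measured microfibril partners of the latent binding proteins, 2 rose and 2 fell, with a median of -0.16. Mfap4, a microfibril-associated glycoprotein gene, fell by 0.66 ± 0.12 (limma adjusted p = 0.0148) and Fbln1, the fibulin-1 gene, by 0.38 ± 0.088 (limma adjusted p = 0.0455). Efemp1, or fibulin-3, rose by 0.37 ± 0.074 (limma adjusted p = 0.0263), and Adamtsl4, whose product binds fibrillin-1, rose by 0.52 ± 0.11 (limma adjusted p = 0.0314). Of these 4, Mfap4 kept its call in all 8 fits without 1 mouse. Efemp1 lost it in 5, Adamtsl4 in 6 and Fbln1 in 7 of them, where the highest adjusted p was 0.0769 for Efemp1 and 0.120 for Fbln1, both on leaving out old replicate 4, and 0.0904 for Adamtsl4 on leaving out young replicate 3. Fbln1 also lost it with the mean of its probe sets (adjusted p = 0.125).

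Of 12 coreceptors and extracellular modulators, 1 rose and 3 fell, with a median of -0.078. Fmod, or fibromodulin, a collagen-bound proteoglycan that can bind TGF-beta, had 6.34, 6.87, 6.66 and 6.32 in old replicates 1 to 4, against 8.90, 9.26, 9.58 and 8.78 in young replicates 1 to 4. It fell by 2.58 ± 0.19 (limma adjusted p = 0.000139), the largest change in the 5 lists. Its levels in old mice lay within the range of the non-specific controls. Nrp1, a coreceptor for semaphorins and vascular growth factor that also binds TGF-beta, fell by 1.09 ± 0.14 (limma adjusted p = 0.00299), and its other bright probe set changed by -1.13. The proteoglycan gene Bgn fell by 0.39 ± 0.078 (limma adjusted p = 0.0244), and leaving out a mouse ended this call in 6 of 8 cases, with adjusted p up to 0.0808 for old replicate 2. Acvrl1, a type I receptor best known in endothelium, rose by 0.53 ± 0.099 (limma adjusted p = 0.0178), with 9.80, 9.89, 9.74 and 9.72 in old replicates 1 to 4, against 9.46, 9.15, 9.38 and 9.04 in young replicates 1 to 4. Its second bright probe set changed by 0.31 and did not pass (limma adjusted p = 0.320 as the gene's value), and the call was absent without old replicate 2 (0.0613) and without young replicate 2 (0.0569). The endothelial markers Pecam1, Cdh5 and Kdr changed by 0.17, -0.0025 and 0.35 beside it, and none of the 6 endothelial markers passed.

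None of 17 Smads and Smad regulators passed limma's threshold, with 4 higher and none lower at an unadjusted p under 0.05, against 6.8% and 8.28% of all genes, and a median of 0.035. Smad2, Smad3 and Smad4, which carry the signal to the nucleus, changed by -0.14, 0.19 and 0.01. The 4 with the smallest p were the corepressor gene Tgif1 at 0.37 ± 0.093, the ubiquitin ligase gene Nedd4l at 0.55 ± 0.16, Skil, which encodes the Smad corepressor SnoN, at 0.67 ± 0.20, and the inhibitory Smad6 at 0.23 ± 0.084. Their limma adjusted p-values were 0.0649, 0.0953, 0.113 and 0.222. With the title run as a block, Tgif1, Nedd4l and Skil passed (limma adjusted p = 0.0424, 0.0197 and 0.00550). Of the 17 alternatives run on genes, Nedd4l passed in only 1, and Tgif1 and Skil in 2 each. Averaged over its probe sets, of which only the brightest was above the dim level, Nedd4l changed by 0.155 (limma adjusted p = 0.306). Smad7, the feedback inhibitor, changed by 0.09 ± 0.14. The mean levels of Smad6 and Smad7 in both ages lay within the range of the non-specific controls.

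Genes known to be induced by TGF-beta did not share a direction: 2 of the 20 measured rose, 1 fell, and the median change was 0.073. The matricellular gene Postn fell by 1.59 ± 0.22 (limma adjusted p = 0.00395), while the cell cycle inhibitor gene Cdkn2b rose by 1.03 ± 0.15 (limma adjusted p = 0.00527), and both kept their calls in all 8 fits without 1 mouse. Cdkn2b had low levels, 5.96, 6.12, 6.61 and 6.59 in old replicates 1 to 4, against 5.26, 5.38, 5.42 and 5.10 in young replicates 1 to 4. All of these levels lay within the range of the non-specific controls. The matrix protein gene Tgfbi rose by 0.28 ± 0.064 (limma adjusted p = 0.0412), a call lost in each of those 8 fits, with adjusted p up to 0.105 without young replicate 1. Bhlhe40, a transcription factor gene, changed by 0.48 ± 0.12 and did not pass (limma adjusted p = 0.0609), but passed with the block (0.0425). In all it passed in 5 of the 17 alternatives run on genes. The contractile genes Acta2 and Cnn1, used as myofibroblast markers, changed by 0.093 ± 0.079 and 0.043 ± 0.071, and Ccn2 by -0.18 ± 0.073, with Cnn1 and Ccn2 at a dim level. The mean levels of Acta2, 6.56 in old and 6.46 in young mice, also lay within the range of the non-specific controls. Col1a1 and Col3a1, at levels near the top of the arrays, changed by -0.05 ± 0.063 and -0.0225 ± 0.068. At an unadjusted p under 0.05, limma gave 6 induced genes higher and 4 lower, against 6.8% and 8.28% of all genes. Among them, Timp1 changed by -0.74, Col1a2 by -0.40, Fn1 by 0.185 and Cdkn1a by 0.18, and none of these passed after adjustment.

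**Figure D4:**
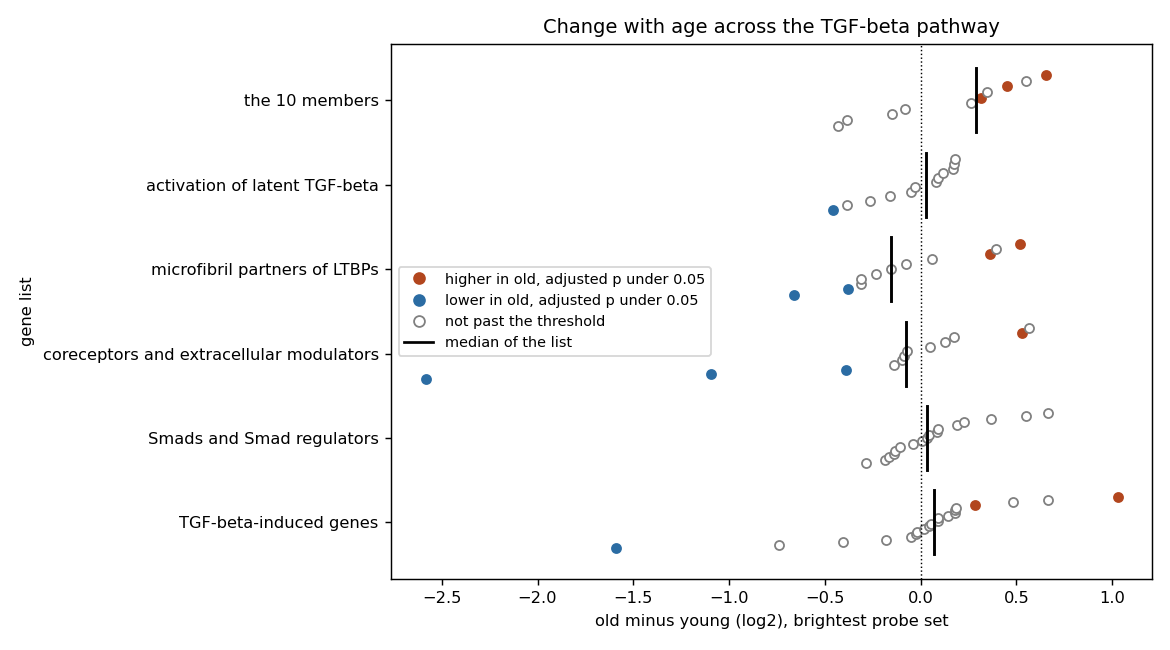
Change with age (old minus young, log2) of each measured gene of the family and of 5 pathway lists, 1 point per gene by its brightest probe set, with a vertical bar at each list's median. The 10 members have a median of 0.29 and 3 filled points above 0, while the coreceptor list reaches down to Fmod at -2.58.

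Across the settings tried, the members that rose differed in how firmly they held. Tgfbr2 passed in all 17 alternatives run on genes, with adjusted p from 0.00290 to 0.0394. Ltbp4 passed in 15 and Ltbp3 in 8 of the 17. Tgfb2, Tgfbr1 and Tgfbr3 passed in 2 each, and Tgfb1, Tgfb3, Ltbp1 and Ltbp2 in none.

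**Figure D5:**
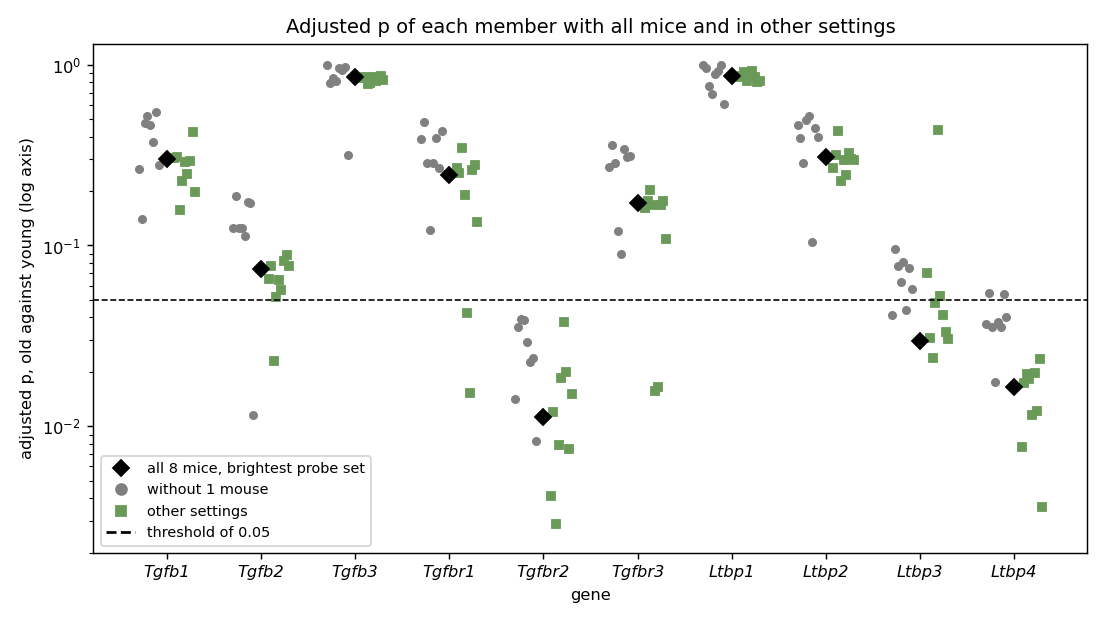
Adjusted p of the change with age for each of the 10 genes (log axis) with all 8 mice (diamond), in the 8 fits without 1 mouse (circles) and in the 9 other settings (squares), with a dashed line at 0.05. All points of Tgfbr2 lie below the line, those of Ltbp3 and Ltbp4 lie on both sides, and those of Tgfb1, Tgfb3, Ltbp1 and Ltbp2 lie above it.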

How the data were processed

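The authors deposited log2 expression per probe set. The tools listed per the submitters' processing notes are RMA and affy, with no version. RMA corrects background, equalises the arrays' distributions and summarises probes, so values compare a probe set between arrays, not genes with each other. Values of 8 arrays were complete and no arrays were identical. RNA was amplified for 21 cycles, per the labels' protocols. The number of arrays limits the precision.

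Symbols came from the platform annotation, checked through gene identifiers: 28898 probe sets had 1 symbol, 551 had several and 15692 had none, and 28689 identifiers matched with 0 symbols changed. Old and young were compared with limma 3.58.1 in R 4.3.3 (lmFit, eBayes, 2-sided, Benjamini-Hochberg adjustment), once over 17097 genes by brightest probe set and once over all 45141 probe sets. Both fits were tested on simulated data, where a rate of recovery was required only for changes larger than any of the members'. Alternatives changed the prior, array weights, dim filter, probe set choice, scaling, title run block, threshold and mice. The members, lists and alternatives were chosen with earlier results of these data known. Named from each list were all genes past the threshold and otherwise the 4 with the smallest p, further genes being named after their values were seen. The fit took no collection day, which is not labelled. Promoter windows are RefSeq's.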

Additional observations from a re-analysis of the deposited data

Results flagged for a closer look

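In 4 of 78 groups of 4 mice tested, 1 mouse lay apart from the other 3 by more than Dixon's 95% limit, and chance flags about 1 in 20 such groups. For Tgfb3, young replicate 4 stood at 6.79 while the other young mice lay between 7.58 and 7.68. The brightest probe set of Tgfbr2 had 9.97 in young replicate 4, with the other young mice between 10.35 and 10.42, and without this mouse the change was 0.55 (limma adjusted p = 0.00830). The dimmest probe set of Tgfbr2, at the level of the non-specific controls, had 3.63 in young replicate 2 against 3.69 in each of the other young mice. Postn stood at 9.91 in young replicate 3, above 9.31 to 9.37 in the other young mice.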

How the results depend on the processing

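The count of members past the threshold by gene, 3, ranged from 1 to 3 without 1 mouse, and that by probe set, 6, from 1 to 5. The pathway count, 12, ranged from 6 to 10. Without 1 mouse, the lists ranged in genes higher and lower as follows: activation of latent TGF-beta 0 and 0 to 1, microfibril partners 0 to 2 and 1 to 2, coreceptors 0 to 2 and 2 to 3, Smads 0 to 1 and 0, and TGF-beta-induced genes 1 to 2 and 1 to 2. Array weights gave 1 Smad regulator and 4 induced genes higher. Leaving out dim genes gave 2 coreceptors higher. The mean of probe sets gave 1 microfibril partner lower, 2 coreceptors higher and 2 induced genes lower. The dimmest probe set above the dim level gave 1 microfibril partner lower, 0 coreceptors higher, 1 Smad regulator lower and 2 induced genes lower, and there Ltbp1 changed sign to 0.0375, since it is read from another probe set. Centring arrays on their median gave 1 microfibril partner and 1 induced gene higher. The title run as a block gave 2 activation genes lower, 3 Smad regulators higher and 4 induced genes higher. A threshold of 0.10 gave 2 activation genes lower, 2 coreceptors higher and 2 Smad regulators higher. Without old replicate 3, 3 weak probe sets changed sign, none past the threshold; over the 8 fits they ranged from -0.032 to 0.052 (Tgfbr2), -0.078 to 0.095 (Ltbp1) and -0.035 to 0.065 (Ltbp3). Except where said, the cause was not tested. Of the other values of single genes and probe sets, 726 kept direction and side of the threshold, 84 lost and 25 gained a call. Signal near that of the non-specific controls limits what can be seen for Ltbp2, Cdkn2b, Acta2, Smad6 and Smad7, for Fmod in old mice and for the dim probe sets.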

Other observations

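The genes whose deviations from the mean of each age followed each risen member most closely over the 8 arrays were picked among 10550 genes above the dim level, as a description. For Tgfbr2 they were Ufc1 (Pearson r = 0.998), Cnksr3 (0.992) and Arfgap2 (0.987), and their own changes with age were -0.18, -0.053 and 0.20, none past the threshold. For Ltbp4 they were Armc9 (0.988), 4933411K16Rik (0.973) and Sema6a (0.972). Of these, 4933411K16Rik rose by 0.61 (limma adjusted p = 0.0137). For Ltbp3 they were Klhl11 (0.961), Inpp4a (0.931) and the microfibril gene Mfap5 (0.925), which changed by 0.40 (limma adjusted p = 0.122). The arrays share 2 runs of title numbers and 1 low young value of Tgfbr2, and with 8 arrays and this many candidates high values of r arise readily.

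Probe sets of 1 gene tracked each other unevenly between mice of an age. Over the 8 deviations, the pair of probe sets above the dim level had r = 0.499 for Tgfbr2, 0.166 for Tgfbr1, 0.243 for Ltbp1 and 0.067 for Tgfbr3. The second probe set of Ltbp1 averaged only 5.35, within the range of the non-specific controls.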
